A study of Mus musculus with 4 samples.

Results

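The Myc, Max and Mxd network was described through 9 genes, Myc, Mycn, Max, Mxd1, Mxd3, Mxd4, Mxi1, Mnt and Mlx, taken by symbol from a table of 24340 genes. RNA had been sequenced from mouse bone marrow cells of strain C57BL/6, selected for lack of lineage markers and presence of Kit. That selection is used to enrich immature blood cells. Mast cell markers dominated the RNA, as described below, so the values cannot be taken as those of immature cells. The cells of all 4 groups, controls included, carried the activated kinase allele JAK2V617F. The groups were Tet2-/- cells given ruxolitinib, Tet2-/- control cells, Tet2+/+ cells given ruxolitinib and Tet2+/+ control cells, called knockout and wild type here, with 1 library in each. Tet2 encodes an enzyme that oxidises methylated cytosine, and ruxolitinib inhibits the kinases JAK1 and JAK2. Per the series' text, inactivation was conditional and restricted to blood cells, and cells met the drug after extraction. That text also names Dnmt3a and Flt3ITD alleles, which the labels of these 4 libraries do not carry. Information on the Cre driver, dose, time, vehicle, age and number of animals was not given in the sources used here. With 1 library per group no difference below has a replicate check, and no p-value was computed.

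Myc proteins are transcription factors that bind DNA only as partners of Max, at the letters CACGTG and close relatives known as E-boxes, and promote cell growth and proliferation. Mxd1, Mxd3, Mxd4, Mxi1 and Mnt also pair with Max, bind the same letters and recruit Sin3 and histone deacetylases, so they oppose Myc. Mlx is a Max-like partner that pairs with some Mxd proteins, with Mnt and with the glucose-sensing factors Mlxip and Mlxipl. In blood cells Myc accompanies the proliferation of progenitors, and Mxd genes other than Mxd3 are known to be higher as cells stop dividing and mature.

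Mycn was several-fold lower with ruxolitinib in both genotypes, at 3.34 FPKM (fragments per kilobase of transcript and 1000000 fragments) with drug against 12.0 without in knockout cells. Mxd4 was lower in knockout than in wild-type cells with and without drug. Mxi1, at a low level, differed with the drug in opposite directions in the 2 genotypes, and Myc, Max and Mlx were nearly level over the 4 libraries. All 9 genes lie on autosomes, and all reached 1 FPKM in all 4 libraries. All therefore passed the filter, a mean FPKM of 1 or more, as did 10471 genes in all, called measured here.

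Promoter letters are shown for Mycn and Mxd4, whose values differed most between libraries, and for the members that share the E-box letters with Mxd4. RefSeq windows on GRCm38.p6 (mm10), each from 250 bases before to 50 after an annotated start, were matched by symbol for 8 of the 9 genes, with 3 windows for Mxi1 and thus 10 in all; Myc had no entry. Searched on both strands, CACGTG was found in the windows of Mxd4, Mnt, Mlx and Max, that is 4 of 10, against 7.15% of all 32851 windows. TTCNNNGAA, the letters bound by STAT factors, was in 0 of the 10 and in 8.30% of all windows. TTTCCCGC or TTTGGCGC, letters bound by E2F factors and searched after the values were seen, was in the Mycn window and in 1.56% of all windows. These are matches of letters and not binding sites. In the sequences, on each gene's own strand, capitals mark TTTGGCGC in Mycn, first bases at -183 and -168 from the start, and CACGTG in the others, at -219 in Mxd4, -123 in Mnt, -40 in Mlx and -3 in Max. The motifs searched do not overlap in these windows. The windows of the 8 genes held between 14 CG dinucleotides, in Mycn, and 49, in one of the Mxi1 windows, with 18 in Mxd4; methylation of these bases was not analysed here.
Mycn, chr12:12941787-12942086, minus strand: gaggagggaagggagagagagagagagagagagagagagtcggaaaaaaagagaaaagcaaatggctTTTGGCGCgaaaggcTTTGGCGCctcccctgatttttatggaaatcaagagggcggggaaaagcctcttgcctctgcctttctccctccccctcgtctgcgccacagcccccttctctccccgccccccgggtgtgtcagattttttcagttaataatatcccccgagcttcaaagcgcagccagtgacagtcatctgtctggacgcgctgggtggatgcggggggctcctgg
Mxd4, chr5:34187661-34187960, minus strand: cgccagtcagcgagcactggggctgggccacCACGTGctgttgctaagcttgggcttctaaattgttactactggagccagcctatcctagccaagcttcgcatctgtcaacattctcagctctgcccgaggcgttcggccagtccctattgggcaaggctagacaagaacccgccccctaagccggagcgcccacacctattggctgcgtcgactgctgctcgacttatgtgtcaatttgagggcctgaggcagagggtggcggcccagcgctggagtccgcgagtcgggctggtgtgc
Mnt, chr11:74830774-74830833, plus strand: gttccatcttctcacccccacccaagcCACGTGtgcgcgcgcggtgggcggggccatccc
Mlx, chr11:101087223-101087282, plus strand: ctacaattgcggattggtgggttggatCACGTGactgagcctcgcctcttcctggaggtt
Max, chr12:76962219-76962278, minus strand: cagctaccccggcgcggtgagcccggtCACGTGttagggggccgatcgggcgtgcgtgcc

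The libraries and cells were checked first. Steps between the lowest values put depth at an estimated 51800000 and 54800000 fragments in the knockout ruxolitinib and control libraries and 47800000 and 44300000 in wild type, any scaling by Cuffdiff included. Counting errors below are 1 SE on the log2 scale for 1 kilobase of transcript at those depths. They were computed for FPKM without the added 1 that the ratios below carry. For those ratios the counting errors are therefore too large, most of all for low genes. They cover counting error only. The longest annotated transcripts of the members run from 1742 bases, in Mxd3, upward. Mast cell markers dominated: 9 of 10 listed genes reached 1 FPKM, summing to 22169 and 18378 FPKM in the knockout ruxolitinib and control libraries and to 30105 and 26415 in wild type, with Cpa3 listed at 0 in all 4. In knockout without drug 1 mast cell marker was at least 1.5-fold higher, Tpsab1 at a log2 ratio of 1.13. Lower were 3, Cma1 at -0.72, Fcer1a at -0.70 and Hdc at -0.95. With drug 1 was higher, Tpsab1 at 1.99, and 2 were lower, Cma1 at -0.65 and Fcer1a at -0.72. Over all measured genes 3.88% were as far higher and 5.06% as far lower without drug, and 2.97% and 3.34% with drug. With ruxolitinib 0 mast cell markers passed 1.5-fold in knockout cells. In wild-type cells 2 were lower, Tpsab1 at a log2 ratio of -1.14 and Hdc at -1.50, beside 2.64% of all measured genes. Of the cycling-cell and granulocyte-monocyte markers, 0 passed it in either genotype. Of 4 markers of granulocyte-monocyte progenitors, summing to 29.0 and 28.8 FPKM in the knockout ruxolitinib and control libraries and to 108.4 and 90.5 in wild type, Ctsg made up nearly all, with log2 ratios of knockout to wild type of -1.95 under drug and -1.70 in control cells. Mpo was higher in knockout, with ratios of 1.14 and 1.04, at no more than 1.31 FPKM, and Elane and Prtn3 stayed below 1 FPKM. B and T cell markers reached at most 0.0605 FPKM. The 5 cycling-cell markers summed to 324.3 and 321.8 FPKM in the knockout ruxolitinib and control libraries, against 218.7 and 207.9 in wild type; 2 of them were at least 1.5-fold higher in knockout without drug and 1 with drug. The part of any marker list in the differences below was not tested. Xist was at 62.2 and 53.2 FPKM in the knockout ruxolitinib and control libraries and at 0.0309 and 0.0241 in wild type, and Y-linked Ddx3y was at 0.00886 and 0.0288 FPKM in knockout, against 18.7 and 21.3 in wild type. Sex and genotype therefore cannot be told apart. Tet2 itself was at 4.39 and 3.62 FPKM in the knockout ruxolitinib and control libraries and at 5.05 and 4.69 in wild type, and such gene-wide values cannot show whether an exon was lost. In sorted bulk cells, fewer cells of a type and less RNA per cell cannot be told apart.

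The members' levels were compared as FPKM, which is per length. Within the wild-type control library the order from the highest was Myc, Mxd4, Max, Mlx, Mnt, Mycn, Mxd3, Mxd1 and Mxi1. Myc was the first or second in each library, and Mxi1 was the lowest in all 4. Mxd4 changed place most, being the fourth in the knockout control library and the first in the wild-type ruxolitinib library, and Mycn was the sixth in the wild-type control and the eighth in both ruxolitinib libraries. Neighbours in this order had no replicate spread to be set against.

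**Figure D1:**
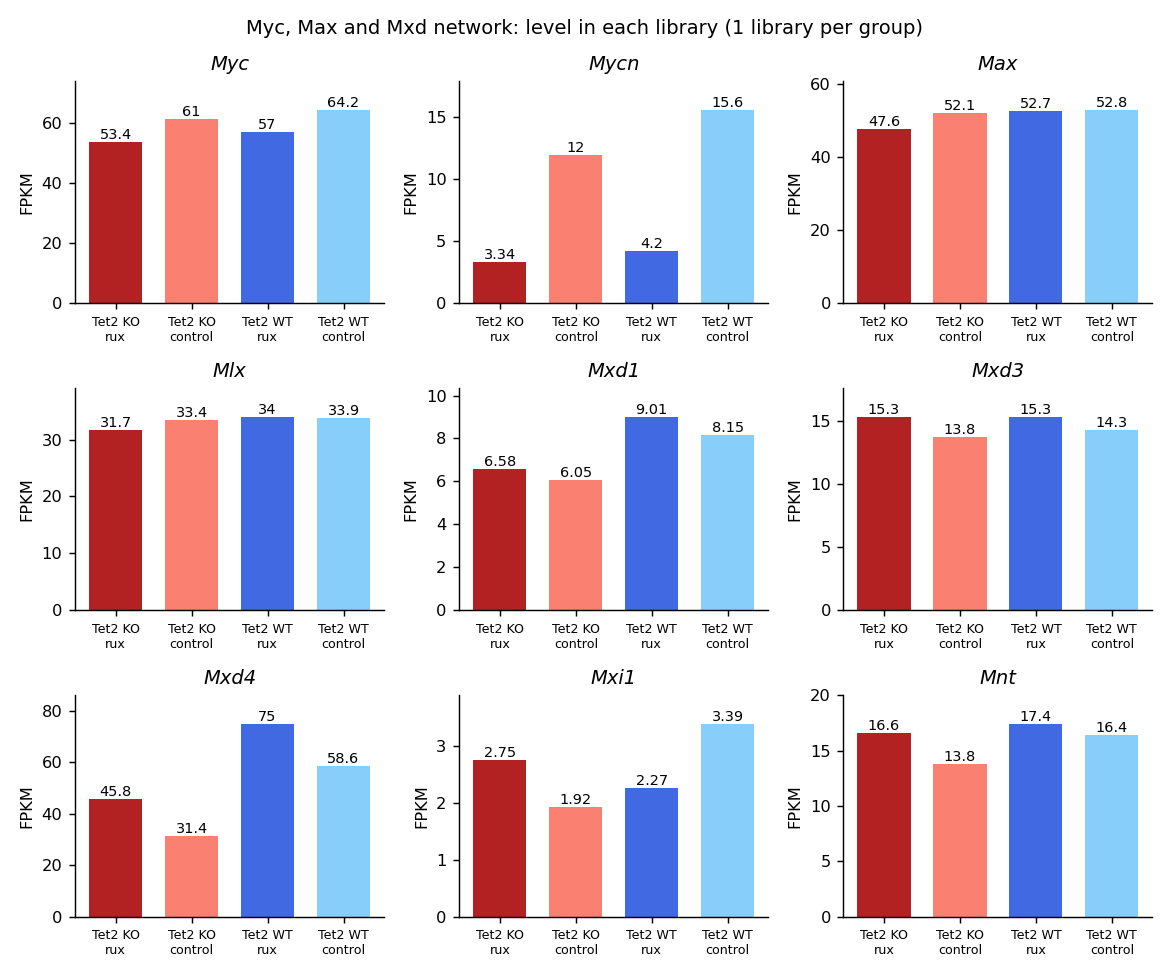
FPKM of each network gene (y axis, from 0, one scale per gene) in the knockout ruxolitinib, knockout control, wild-type ruxolitinib and wild-type control library, 1 library per bar and no error bars. Mycn was lower in both ruxolitinib libraries, at 3.34 and 4.20 FPKM, and Mxd4 was lower in both knockout libraries than in the matching wild-type libraries.

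Among the activators, Myc (chromosome 15, 61985341 to 61990361, in mm10 as in the deposited table) was at 53.4 FPKM in the knockout ruxolitinib, 61.0 in the knockout control, 57.0 in the wild-type ruxolitinib and 64.2 in the wild-type control library. Its highest value was 1.20 times its lowest. With the drug it was lower by a log2 ratio of -0.19 in knockout cells and -0.17 in wild-type cells, where ratios are of FPKM + 1 throughout. The counting errors of those ratios were 0.037 and 0.039. Between genotypes Myc differed by -0.071 without drug and -0.092 with drug, and both signs turned when values were rescaled to sum to 1000000 per library (TPM), to 0.078 and 0.040; the same rescaling moved the median of all measured genes by 0.14 and 0.13, and relative to that shift the signs of Myc were kept. Neither the drug nor the genotype ratio of Myc reached 1.5-fold.

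Mycn (chromosome 12, 12936093 to 12941836), the family member best known from neural and stem cells, was at 3.34 FPKM in the knockout ruxolitinib, 12.0 in the knockout control, 4.20 in the wild-type ruxolitinib and 15.6 in the wild-type control library. The 2 ruxolitinib libraries were both far below the 2 control libraries, in either genotype. FPKM was 3.59-fold lower with drug in knockout cells and 3.70-fold lower in wild-type cells. On the log2 scale the ratios were -1.58 with a counting error of 0.12 and -1.67 with a counting error of 0.12. Each ratio comes from its own pair of libraries, and they differed by 0.091, less than the counting error of that difference, 0.17. Ordered from the lowest ratio, Mycn was number 10 of 9930 measured protein-coding genes in knockout cells and number 21 in wild-type cells. The authors' deposited table gave a q-value of 0.000746 for each pair, a value that compares libraries and not conditions.

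The Mycn level also differed between genotypes, by less than the 1.5-fold rule. The log2 ratio of knockout to wild type was -0.26 under drug and -0.35 in control cells, with counting errors of 0.15 and 0.079. In the authors' deposited table the q-values for these pairs were 0.202 and 0.0534. Of the summed FPKM of Myc and Mycn, Mycn made up 5.88% in the knockout ruxolitinib and 16.4% in the knockout control library, against 6.87% in the wild-type ruxolitinib and 19.5% in the wild-type control library.

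The shared partners were the least variable members. Max (chromosome 12, 76937269 to 76962248) was at 47.6 FPKM in the knockout ruxolitinib, 52.1 in the knockout control, 52.7 in the wild-type ruxolitinib and 52.8 in the wild-type control library. The knockout ruxolitinib library stood below the other 3, by a log2 ratio of -0.13 against the knockout control and -0.14 against the wild-type ruxolitinib library, with counting errors of 0.040 and 0.041. Set against the summed FPKM of its 7 network partners described here, Max amounted to 0.331 and 0.372 in the knockout ruxolitinib and control libraries and to 0.292 and 0.292 in wild type. Mlx was at 31.7 and 33.4 FPKM in the knockout ruxolitinib and control libraries, against 34.0 and 33.9 in wild type, its highest value being 1.07 times its lowest. Its deposited locus (chromosome 11, 101087290 to 101095435) runs on over the opposite-strand gene Psmc3ip, with which it shares 385 exon bases in GENCODE M21. Psmc3ip was at 15.7 and 15.8 FPKM in the knockout ruxolitinib and control libraries and at 9.07 and 8.02 in wild type. Counting by strand is not stated, so reads in the shared bases cannot be assigned. Their part in the level of Mlx was not tested.

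Among the antagonists, Mxd4 (chromosome 5, 34176580 to 34187710) was at 45.8 FPKM in the knockout ruxolitinib, 31.4 in the knockout control, 75.0 in the wild-type ruxolitinib and 58.6 in the wild-type control library. Both knockout libraries were below both wild-type libraries, and within each genotype the ruxolitinib library was the higher one. The log2 ratio of knockout to wild type was -0.88 in control cells and -0.70 under drug, with counting errors of 0.045 and 0.038. As FPKM this was 1.87-fold and 1.64-fold lower. The ratio with drug missed the 1.5-fold rule when rescaled to TPM, at -0.57, and relative to the median TPM ratio of all measured genes it was -0.70. Mxd4 was number 168 and number 176 of 9930 protein-coding genes from the lowest ratio in these comparisons, and the authors' deposited table gave a q-value of 0.000746 for both.

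With ruxolitinib, Mxd4 was higher by a log2 ratio of 0.53 in knockout cells and 0.35 in wild-type cells, both under the 1.5-fold rule. It was number 148 and number 269 of the 9930 genes from the highest ratio. The q-values in the authors' deposited table were 0.00139 and 0.0514. The ratios differed by 0.18 between genotypes, with a counting error of 0.059. Gm42846, on the opposite strand, shares 514 exon bases with Mxd4 in GENCODE M21. No FPKM was listed for Gm42846, and reads in those bases cannot be assigned.

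Mxi1 (chromosome 19, 53310506 to 53375810) had the lowest level and drug ratios of opposite sign in the 2 genotypes. It was at 2.75 FPKM in the knockout ruxolitinib, 1.92 in the knockout control, 2.27 in the wild-type ruxolitinib and 3.39 in the wild-type control library. The wild-type control library was the highest and the knockout control library the lowest. The drug ratio was 0.36 in knockout cells and -0.43 in wild-type cells, with counting errors of 0.19 and 0.18. Their difference was 0.79 with a counting error of 0.26, number 49 of 9930 protein-coding genes from the highest. These errors are for FPKM without the added 1, and at this low level they are too large for the ratios given. In the authors' log2 fold changes, without a pseudocount, the difference was 1.10. The knockout ratio was 0.20 with drug and -0.59 without drug, the second just past the 1.5-fold rule, a log2 ratio of 0.585 in size. Under TPM it was -0.56 and with a pseudocount of 5 FPKM -0.28, both short of the rule, while relative to the median TPM ratio it was -0.71; the difference of 0.79 became 0.37 with that pseudocount. The values rest on an estimated 143 and 105 fragments per kilobase in the knockout ruxolitinib and control libraries and 108 and 150 in wild type. The authors' deposited table, which uses no pseudocount, gave log2 fold changes of 0.52 and -0.58 for the drug, with q-values of 0.0125 and 0.00359. Mxi1 has 3 annotated start windows in RefSeq, and an FPKM for the whole gene does not say which transcript was present. Gm10197, on the opposite strand, shares 194 exon bases with Mxi1 in GENCODE M21, and reads in those bases cannot be assigned.

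Mxd1 (chromosome 6, 86647045 to 86669159) was at 6.58 FPKM in the knockout ruxolitinib, 6.05 in the knockout control, 9.01 in the wild-type ruxolitinib and 8.15 in the wild-type control library. Both knockout libraries were below both wild-type libraries. Log2 ratios of knockout to wild type, -0.38 in control cells and -0.40 under drug, with counting errors of 0.11 and 0.10, did not reach 1.5-fold. Their q-values in the authors' deposited table were 0.0242 and 0.0140. The drug ratio of Mxd1 was 0.10 in knockout and 0.13 in wild-type cells, close to its counting errors of 0.11 and 0.10.

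Mnt and Mxd3 stayed under 1.5-fold in all comparisons. Mnt (chromosome 11, 74830924 to 74845725), the antagonist that most cell types express, was at 16.6 and 13.8 FPKM in the knockout ruxolitinib and control libraries and at 17.4 and 16.4 in wild type. The knockout control library was the lowest, at a log2 ratio of -0.23 against the wild-type control library. Mxd3, which is linked to cycling cells, was at 15.3 and 13.8 FPKM in the knockout ruxolitinib and control libraries and at 15.3 and 14.3 in wild type, with log2 ratios from -0.052 to 0.15 over the 4 comparisons. Its deposited locus (chromosome 13, 55322055 to 55329730) reaches into the opposite-strand gene Prelid1, which shares 105 exon bases with it in GENCODE M21 and lay between 178.1 and 232.2 FPKM, so reads in the shared bases cannot be assigned.

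**Figure D2:**
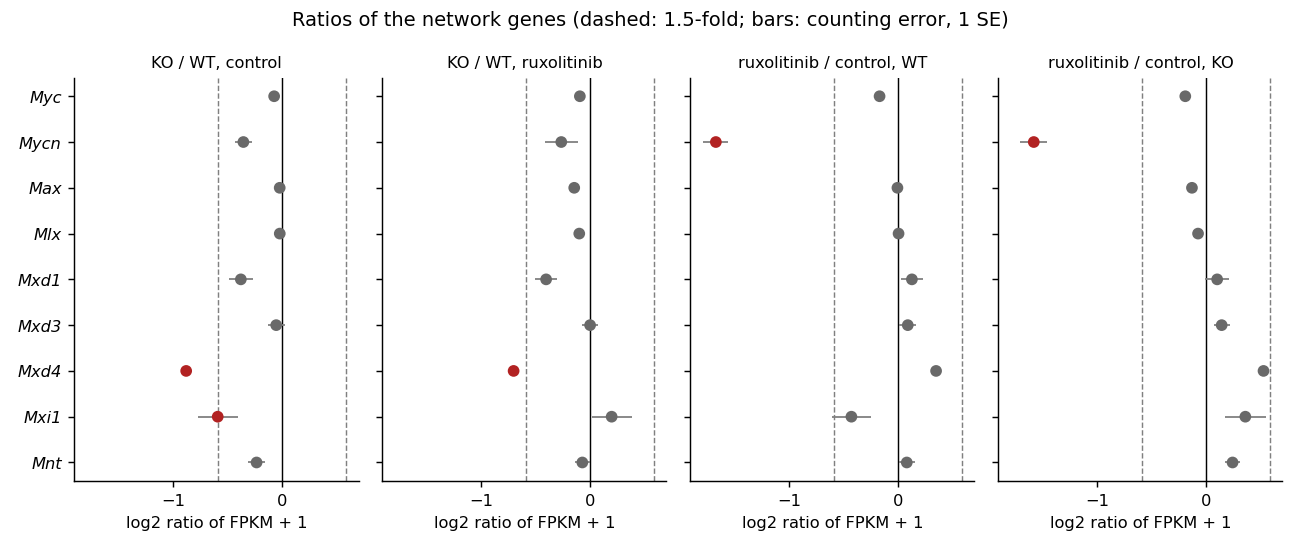
Log2 ratios of FPKM + 1 (x axis) of the 9 network genes (rows) in the 4 comparisons, knockout over wild type without and with drug and ruxolitinib over control in wild type and knockout. Points past the dashed 1.5-fold lines are red. Bars are the counting error (1 SE) for 1 kilobase of transcript, computed for FPKM without the added 1. Mycn stands at -1.67 and -1.58 in the drug comparisons and Mxd4 at -0.88 and -0.70 in the knockout comparisons.

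Counted over the network, the knockout control library had 2 of 9 members at least 1.5-fold lower than the wild-type control library, Mxd4 and Mxi1, and 0 as far higher. Over all measured genes 5.06% were as far lower and 3.88% as far higher, and over the 9930 protein-coding ones 4.35% and 3.26%. The median log2 ratio of the members was -0.23, beside 0.0028 over all measured genes. All 9 ratios were negative, but TPM values moved the median of all genes by 0.14 in this comparison and made those of Myc, Max, Mxd3 and Mlx positive; relative to the median TPM ratio, 9 were negative and 0 positive, with 2 at least 1.5-fold lower. With drug, 1 of 9 members was lower, Mxd4, and 0 were higher, against 3.34% and 2.97% of all measured genes and 2.56% and 2.38% of protein-coding ones, with a median of -0.097 beside 0.00093.

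For ruxolitinib, 1 of 9 members was at least 1.5-fold lower in each genotype, Mycn, and 0 were as far higher. In knockout cells 2.2% of measured genes were as far lower and 1.67% as far higher, or 1.47% and 1.1% of protein-coding ones. In wild-type cells the shares were 2.64% and 1.05%, or 1.95% and 0.413%. The medians were 0.10 in knockout and 0.0065 in wild-type cells, beside 0.0042 and 0.0068 over all measured genes. In the difference between the genotypes 1 of 9 was higher, Mxi1, and 0 were lower, against 1.82% and 1.14% of measured genes and 0.947% and 0.171% of protein-coding ones. Counts of 1 or 2 genes in 9 describe those genes and not the network.

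Sums over opposing members were formed after the values were seen. The FPKM of Myc and Mycn together was 56.8 in the knockout ruxolitinib, 73.0 in the knockout control, 61.2 in the wild-type ruxolitinib and 79.7 in the wild-type control library. The 5 antagonists together were at 87.0 FPKM in the knockout ruxolitinib, 67.0 in the knockout control, 119.0 in the wild-type ruxolitinib and 100.9 in the wild-type control library. The ratio of activators to antagonists was 0.652 in the knockout ruxolitinib and 1.09 in the knockout control library, against 0.514 in the wild-type ruxolitinib and 0.790 in the wild-type control library. The ratio was lower with drug in both genotypes and higher in knockout in both treatments, and being taken within a library it does not depend on scaling between libraries. Mxd4 made up 52.6% and 46.9% of the antagonist sum in the knockout ruxolitinib and control libraries, against 63.0% and 58.1% in wild type. Without Mxd4 the ratio was 1.38 and 2.05 in the knockout ruxolitinib and control libraries and 1.39 and 1.89 in wild type. The genotype difference with drug was then 1.38 against 1.39 and so rested on Mxd4. Without drug it was 2.05 against 1.89, where with Mxd4 it had been 1.09 against 0.790. The drug difference stayed without Mxd4. Mycn was kept in these sums, and the ratio without it was not computed.

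**Figure D3:**
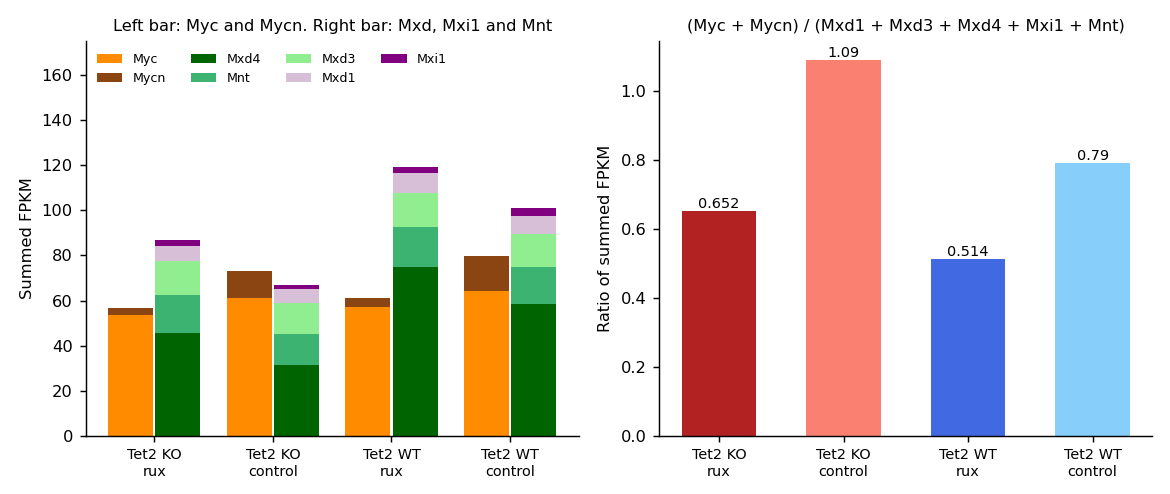
Left, summed FPKM (y axis, from 0) of Myc and Mycn (left bar of each pair) and of Mxd4, Mnt, Mxd3, Mxd1 and Mxi1 (right bar) in each of the 4 libraries. Right, the ratio of the 2 sums, 0.652 and 1.09 in the knockout ruxolitinib and control libraries and 0.514 and 0.790 in the matching wild-type libraries.

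Genes with the most similar profiles were sought for Myc and for the members that passed 1.5-fold, among 8007 named protein-coding genes averaging 5 FPKM or more. Likeness was the root mean square difference of centred log2(FPKM + 1) values over the 4 libraries. Closest to Mycn were Cish, Osm, Ptprg, Pim2 and Pim1, at 0.11, 0.15, 0.15, 0.16 and 0.23. Cish is a feedback inhibitor of cytokine receptors, Osm a cytokine, Ptprg a receptor phosphatase, and Pim1 and Pim2 are kinases. Cish was at 40.7 and 113.8 FPKM in the knockout ruxolitinib and control libraries and at 45.1 and 174.1 in wild type, high in the same 2 libraries as Mycn. Ptprg was at 16.0 and 40.3 FPKM in the knockout ruxolitinib and control libraries and at 19.1 and 50.6 in wild type.

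Closest to Mxd4 were Hrh4, Izumo4, Txnip, Hacd4 and Adck5, at differences of 0.017, 0.037, 0.039, 0.042 and 0.043. Hrh4 encodes a histamine receptor and was at 14.3 and 9.65 FPKM in the knockout ruxolitinib and control libraries, against 24.6 and 18.5 in wild type. Txnip binds thioredoxin, limits glucose uptake and is a known target of Mlx with Mlxip. It was at 160.3 and 115.0 FPKM in the knockout ruxolitinib and control libraries and at 269.8 and 198.5 in wild type, an order of libraries equal to that of Mxd4. These profiles hold 4 values each, and 23 genes lay within 0.1 of Mxd4 while 0 lay within 0.1 of Mycn.

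**Figure D4:**
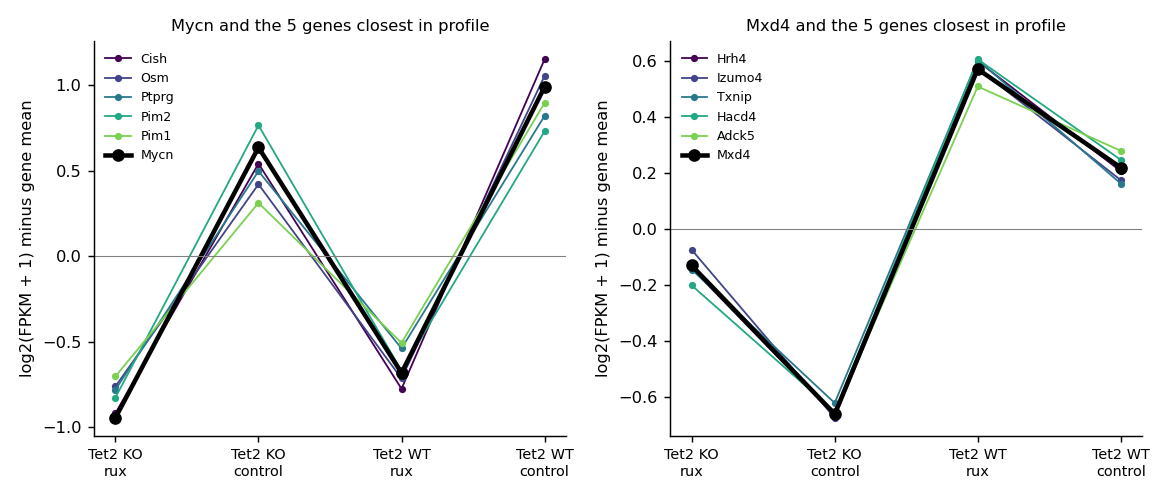
Log2(FPKM + 1) minus the mean of each gene (y axis) in the 4 libraries for Mycn and Mxd4 (black) and the 5 genes closest to each (colours), lines joining the values of a gene. Mycn and its neighbours Cish, Osm, Ptprg, Pim2 and Pim1 are high in both control libraries, and Mxd4, Txnip and Hrh4 are highest in the wild-type ruxolitinib library.

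The relatives outside the 9 genes were low or level. Mycl, the remaining Myc gene, was listed at 0 in all libraries but the wild-type ruxolitinib one, at 0.0068 FPKM, and Mlxipl did not exceed 0.0193 FPKM. Mlxip, a partner of Mlx, was at 10.8 and 10.3 FPKM in the knockout ruxolitinib and control libraries and at 11.5 and 11.5 in wild type. Mga, a Max partner with a T-box, lay between 7.08 and 7.40 FPKM. Of 6 genes of the repressor complex bound by Mxd and Mnt, 1 was at least 1.5-fold higher in knockout without drug and 0 lower. In this comparison 3.88% of all measured genes were as far higher and 5.06% as far lower. The repressor complex gene was the deacetylase Hdac1, at 18.6 against 12.0 FPKM. Its log2 ratio of 0.591 was just past the rule of 0.585. In the other comparisons 0 of the 6 passed the rule. Of 10 coactivators and 9 measured genes for Myc protein stability, 0 passed it in any comparison. Under TPM 3 of the stability genes were at least 1.5-fold higher in knockout without drug, where 8.08% of all measured genes were, and 1 was relative to the median TPM ratio. Among the stability genes the deposited symbol C330027C09Rik was read as Cip2a, and it was at 22.9 and 25.6 FPKM in the knockout ruxolitinib and control libraries and at 17.6 and 17.8 in wild type.

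Genes that Myc is known to activate were taken in 2 lists. Of 20 nucleolar and ribosome biogenesis genes, 20 had positive ratios in both knockout comparisons, with medians of 0.43 without and 0.24 with drug, and 20 had negative ratios with ruxolitinib, with medians of -0.45 in knockout and -0.26 in wild-type cells. At 1.5-fold, 1 was higher in knockout without drug and 0 were lower, beside 3.88% and 5.06% of all measured genes. The higher one was Dkc1, at 45.5 against 29.9 FPKM. Its log2 ratio of 0.591 was just past the rule of 0.585. In the other comparisons 0 of the 20 passed. These comparisons share libraries. All 20 signs were kept under TPM in each comparison. In knockout without drug 10 of the genes were past 1.5-fold higher under TPM, where 8.08% of all measured genes were, but 1 relative to the median TPM ratio. The cycling-cell markers, with the sums given above, were also higher in both knockout libraries.

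Of 32 measured Myc-activated genes of metabolism and growth, 9 were at least 1.5-fold higher and 1 lower in the knockout without drug. Over all measured genes the shares were 3.88% and 5.06%. Under TPM, 17 were higher and 1 lower, beside 8.08% and 4.04% of all measured genes. Relative to the median TPM ratio 9 were higher and 1 lower. The medians were 0.46 without and 0.30 with drug. Most ratios shared a sign in each comparison, with 31 positive and 1 negative for knockout in control cells and 30 and 2 under drug. The drug ratios were 2 positive and 30 negative in knockout cells and 6 and 26 in wild-type cells. The folate enzyme Shmt1 was at 18.9 FPKM in knockout and 9.28 in wild type, Cdca7 at 27.5 and 14.7, the cell cycle factor E2f2 at 6.63 and 3.37, and cyclin Ccnd2, the lower one, at 144.5 and 247.1. With drug, 5 were higher and 1 lower, beside 2.97% and 3.34% of all measured genes, among them hexokinase Hk2 at 11.7 FPKM in knockout and 5.58 in wild type and the transferrin receptor Tfrc at 34.7 and 21.0. Ruxolitinib gave 4 lower and 0 higher in knockout cells, beside 2.2% and 1.67% of all measured genes, with Srm, a polyamine synthase, at 100.2 FPKM with drug and 165.5 in control and Odc1, the first enzyme of that pathway, at 15.6 and 25.6. In wild-type cells 2 were lower and 0 higher, beside 2.64% and 1.05%, Tfrc at 21.0 FPKM with drug and 35.2 in control and Hk2 at 5.58 and 9.87.

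Genes that Myc is known to repress had no direction common to all comparisons. In knockout without drug all 6 measured ratios were negative, with a median of -0.33. Relative to the median TPM ratio 6 were negative, and under TPM itself 4 were negative and 2 positive. In knockout with drug 3 were positive and 3 negative. The drug ratios were 3 positive and 3 negative in knockout cells and 2 and 4 in wild-type cells. Of 6 measured, 2 were lower and 0 higher in knockout without drug, beside 5.06% and 3.88% of all measured genes. The lower ones were the Cdk inhibitor Cdkn2b at 1.25 FPKM against 5.11 in wild type and the damage-response gene Gadd45a at 6.46 against 10.4. Under TPM 1 was lower, beside 4.04% of all measured genes, and relative to the median TPM ratio 2 were. With drug, the same 2 genes were lower in knockout, at 1.18 against 3.05 and 6.17 against 10.3 FPKM, and Ndrg1, a stress-response gene, was higher at 71.0 against 41.3, beside 3.34% lower and 2.97% higher of all measured genes. In knockout cells ruxolitinib gave 1 higher, Ndrg1 at 71.0 FPKM against 36.0 in control, and 0 lower, beside 1.67% and 2.2%. In wild-type cells it gave 2 lower, the Cdk inhibitor Cdkn1a at 209.4 FPKM against 410.5 in control and Cdkn2b at 3.05 against 5.11, and 0 higher, beside 2.64% and 1.05%. Of 3 listed targets of Mlx with Mlxip, 2 were measured. Txnip was at least 1.5-fold lower in knockout without and with drug, beside 5.06% and 3.34% of all measured genes. The other measured gene passed the rule in neither comparison.

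**Figure D5:**
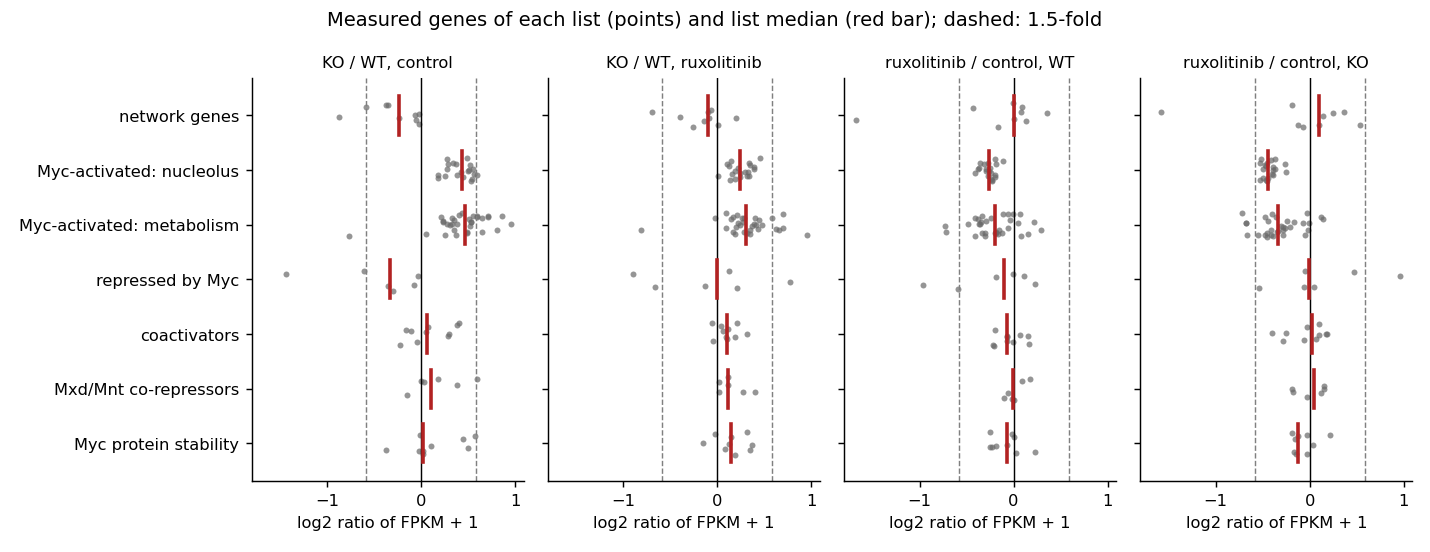
Log2 ratios of FPKM + 1 (x axis) of the measured genes (points) of the network and of 6 related lists (rows) in the 4 comparisons, with list medians in red and the 1.5-fold lines dashed. The nucleolar genes lie right of 0 in both knockout panels and left of 0 in both ruxolitinib panels, with medians of 0.43, 0.24, -0.26 and -0.45.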

How the data were processed

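Total RNA depleted of ribosomal RNA was sequenced (Illumina, per the labels' protocols). The submitters' processing notes name STAR, Cuffdiff and the build mm10, with versions and annotation not given in the sources used here. Deposited were FPKM values of 24340 genes in 4 libraries, made by the authors, and a table of 6 library comparisons, of which 4 were used for the authors' log2 fold changes, which carry no pseudocount, and q-values. Its 2 columns of FPKM per pair were not used. Library columns were matched to groups by title.

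Ratios here are of log2(FPKM + 1), a scale on which low genes appear to differ less. A mean of 1 FPKM or more made a gene measured (10471 genes, of which 10440 matched RefSeq symbols or synonyms and 9930 were protein-coding); protein-coding shares, ranks, sums, TPM ratios relative to their median and the E2F letters were added after the values were seen. With 1 library per group, a call means 1.5-fold or more. Members and 8 other lists were chosen with earlier results of these data known. Named were at most 4 genes of a list per comparison, those past 1.5-fold with the largest ratios, plus Txnip and Odc1. Depth was estimated from low values of genes with 1 transcript, 76.8% to 82.9% of which lay within 0.15 of a whole multiple of the step. The calling rule was run on simulated data with counting error only and with changes larger than 1.5-fold. Those data hold no spread between animals or cultures, so they do not check the calls made here. Alternatives were pseudocounts of 0.1 and 5, no filter, a mean of 5 FPKM or more, median centring, TPM, a 2-fold rule and the authors' log2 fold changes. Python 3.11.15, numpy 2.4.6, pandas 2.3.3 and matplotlib 3.10.9 were used.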

Additional observations from a re-analysis of the deposited data

Results flagged for a closer look

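Mxi1 had opposite signs in paired comparisons. Its ruxolitinib log2 ratio was 0.36 in knockout and -0.43 in wild-type cells, and its knockout ratio was 0.20 with drug and -0.59 without drug. Mlx had ruxolitinib ratios of -0.072 in knockout and 0.0065 in wild-type cells, and Mxd3 had knockout ratios of 0.0021 with drug and -0.052 without drug. The sign alone brought these 4 results here, and with 1 library per group none of the differences was tested. For Mlx and Mxd3 the ratios lie within 2 counting errors of 0. So do the Mxi1 ratios of 0.36 and 0.20, but not those of -0.43 and -0.59. The counting errors of Mxi1, being for FPKM without the added 1, are too large for these ratios.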

How the results depend on the processing

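Of 225 member ratios recomputed under the 5 settings that alter a ratio, 221 stayed on the same side of the 1.5-fold rule, 4 no longer passed it and 0 of those past it changed sign. The filters and the 2-fold rule leave the ratios as they are. The drug ratio of Mycn passed the rule in both genotypes under each alternative run, the 2-fold rule included. In the knockout comparison without drug, the count of lower members was 1 in place of 2 with a pseudocount of 5, with a mean of at least 5 FPKM and with TPM, and 0 under the 2-fold rule; the median moved to -0.094 with TPM. With drug, the count of lower members was 0 in place of 1 with TPM and under the 2-fold rule, and the median moved to 0.033 with TPM. The difference between genotypes had 0 higher members in place of 1 with a pseudocount of 5, with a mean of at least 5 FPKM, which leaves out Mxi1, and under the 2-fold rule. By single member, Mxi1 in knockout without drug was at -0.28 with a pseudocount of 5 and -0.56 with TPM, Mxd4 in knockout with drug at -0.57 with TPM, and the Mxi1 difference at 0.37 with a pseudocount of 5. TPM moved the median of all measured genes by 0.14 in knockout without drug and 0.13 with drug; relative to the median TPM ratio, a setting chosen after seeing the data, Mxi1 was at -0.71 and Mxd4 at -0.70, both past the rule. The larger pseudocount by construction brings ratios of low genes closer to 0. No paired analysis was possible because each group holds 1 library. That number leaves the spread between animals or cultures unmeasured. Depth limits Mxi1 most, with an estimated 105 fragments per kilobase in its lowest library.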

Other observations

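Closest in profile to Mxi1 among the 8007 genes were Rabgef1, Arl4c, Rnf19b, Adora2a and Nrn1, at root mean square log2 differences of 0.042, 0.050, 0.080, 0.087 and 0.094. Rabgef1, a regulator of endosome traffic, was at 31.6 and 24.95 FPKM in the knockout ruxolitinib and control libraries and at 29.3 and 36.8 in wild type, so that the wild-type control library was the highest and the knockout control library the lowest, as for Mxi1. Adora2a, an adenosine receptor, was at 9.92 and 7.91 FPKM in the knockout ruxolitinib and control libraries and at 9.21 and 10.7 in wild type. Closest to Myc were Skiv2l2, Ubr3, Rpl35, Nfe2l1 and Rps18, and 1755 genes lay within 0.1 of it, so a profile as level as that of Myc was common. Rps18 and Rpl35, both ribosomal proteins, lay between 235.3 and 287.3 and between 189.3 and 226.5 FPKM.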
